A study of Mesostigma viride with 16 samples.

Results

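*Mesostigma viride* is a unicellular green alga of the streptophyte lineage, to which land plants also belong. Here cells kept for 24 h at 12 °C under the usual light, 50 µmol of photons per square metre and second (Cold), were compared directly with cells kept for 24 h at the usual 23 °C under 400 µmol of photons (High light). The comparison took the 4 libraries of these treatments, 2 biological replicates each, out of 16 samples in the series, of which 15 had values that were used. Every culture was of the strain NIES-296 in medium of pH 7.5, with no genetic change named in the labels, except that Low pH and High pH cultures had pH 6.0 and 9.0. Untreated cells at 23 °C under the usual light gave the reference levels: 1 library of Control 1, the reference of the light and temperature treatments, and 2 libraries of Control 2, the reference of the pH treatments. Cold and High light thus differed in both temperature and light, at a single time and in a single strain, so the part of either factor in a difference cannot be told apart without the untreated level.

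Chilling and strong light are known to meet in the chloroplast. Low temperature slows the enzymes that use the products of the light reactions, so ordinary light can become more than the cell can use, and strong light does the same directly. Photosystem II is then damaged faster, and its D1 protein has to be broken down and made again. Low temperature also affects processes that strong light does not reach directly, such as RNA folding, ribosome assembly and the stability of microtubules.

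Expression was given as FPKM, a fragment count divided by transcript length and by library size, and differences are Cold minus High light on the scale log2(FPKM + 0.1), which understates the change of genes with low values. The sum of FPKM was 581790 and 578174 in the Cold libraries and 605711 and 614781 in the High light libraries. Numbers of fragments per gene are not held. The commonest ratio between low values (under 0.3 FPKM) gave relative depths of 0.774 for Cold replicate 2, 0.953 for High light replicate 1 and 0.818 for High light replicate 2, with Cold replicate 1 set to 1. Only 59 of 4486, 85 of 4677 and 88 of 4531 genes had that ratio, so these depths are rough. The high temperature libraries stood apart, with a median of 2.98 and 2.57 FPKM over the tested genes against 7.14 to 8.58 in the Cold, High light and untreated libraries. They entered the main fit through the shared estimate of the spread and through the choice of tested genes. They also entered the reference used by quantile normalization and by scaling to the median of the gene ratios. A fit without them, on the same tested genes, called 100 genes, 91 of them among the 93 described next.

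Few genes separated the treatments. Of 14297 tested genes, those with at least 0.5 FPKM in 2 or more libraries, 93 (0.65%) were differentially expressed between Cold and High light (limma, Benjamini-Hochberg adjusted p ≤ 0.01, difference ≥ 2-fold). High light had the higher level of 77 genes (0.539%) and Cold of 16 genes (0.112%). The split depended on scaling: 17.2% of the calls were higher in Cold without scaling, 28.9% after equal totals, 17.6% after the upper quartile, 29.2% after the median of the gene ratios (called median-ratio scaling from here on) and 47.5% after quantile normalization. The 42 genes called without scaling and under each of these 4 scalings were 14 higher in Cold and 28 higher in High light. Without Cold replicate 2 the genes higher in Cold numbered 9. The median difference of all tested genes was -0.08. Against the single Control 1 library, by the same rule, 12% of the tested genes were called in Cold and 5.81% in High light.

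**Figure D1:**
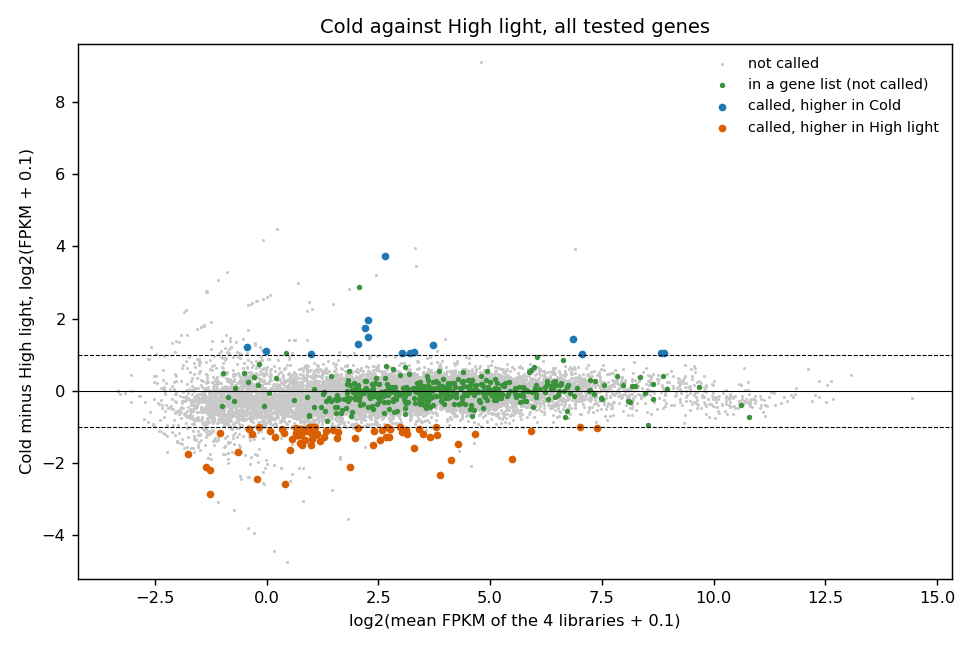
Difference between Cold and High light for each of the 14297 tested genes (vertical axis, log2) against the mean level of the 4 libraries (horizontal axis, log2). Dashed lines mark 2-fold differences; the 77 orange and 16 blue points are the called genes, and the green points, the genes of the lists, hold no called gene.

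None of the 93 genes carried a name in the lists used here, which held 419 tested genes for photosynthesis, transcription factors, chromatin and RNA regulation, cell division, cell wall, phytohormones and ontology terms. For 393 of these 419 genes (93.8%) the 95% interval of the difference lay within 2-fold in either direction, as it did for 85.6% of all tested genes. With 0.65% of all tested genes called, a set of this size would hold few calls, so this count shows nothing particular to the listed genes. Smaller differences were resolved. With no minimum on the size, a rule added after the values were seen, 17 listed genes were higher in Cold and 25 higher in High light at an adjusted p of at most 0.01, against 453 (3.17%) and 881 (6.16%) of all tested genes, 9.33% in both directions. After median-ratio scaling these numbers were 22 and 13 of the listed genes, and 601 (4.2%) and 520 (3.64%) of all tested genes. "Passed the test" means here an adjusted p of at most 0.01 at any size.

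**Figure D2:**
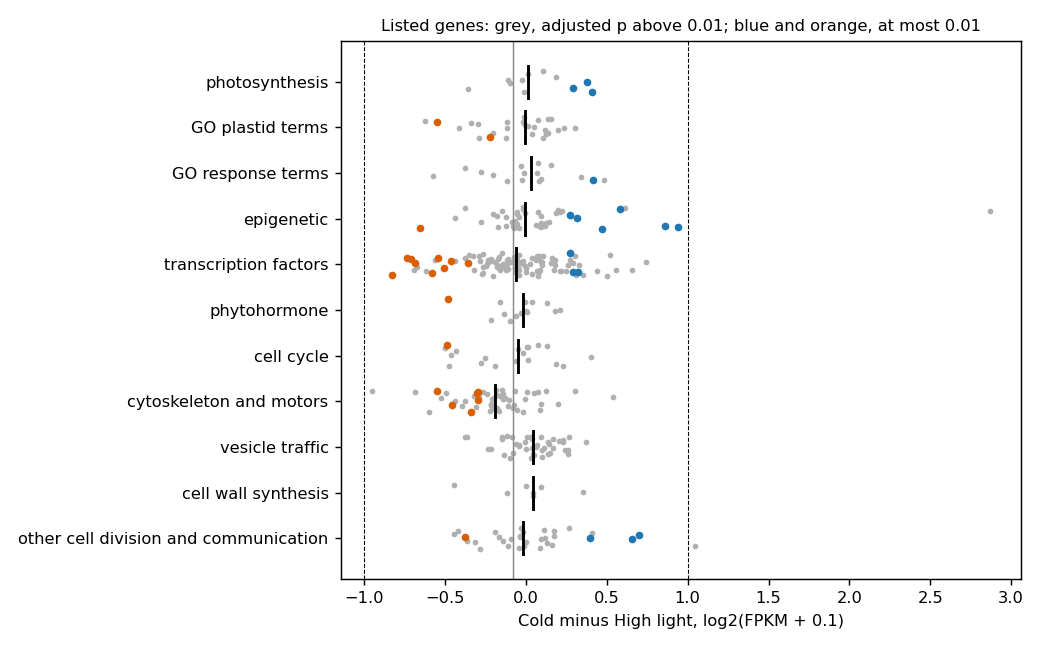
Cold minus High light (log2, horizontal axis) for the tested genes of each list except the charophyte ontology list, 1 point a gene. Black bars are list medians, the grey line the median of all tested genes (-0.08) and dashed lines 2-fold. Blue and orange points passed the test and lie between -0.83 and 0.94, and the grey point at 2.87 is FVE, listed at 0 in High light replicate 2.

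Genes of photosystem II repair were high in both treatments and nearly level with each other. The homolog of VAR2/FTSH2 (Mv19820-RA), the thylakoid protease that degrades damaged D1 protein, had 865 and 824 FPKM in Cold, 788 and 780 in High light, 149 in Control 1 and 137 and 120 in Control 2. The Cold and High light libraries were far above the untreated ones, and the Cold libraries lay just above the High light libraries. The difference was 0.11 with a 95% interval of -0.03 to 0.24 (adjusted p = 0.239), although it reached 0.33 after quantile normalization (adjusted p = 0.00358). HCF173 (Mv13914-RA), needed in Arabidopsis for translation of the D1 mRNA, had 46.0 and 45.1 FPKM in Cold, 49.9 and 48.2 in High light, 9.01 in Control 1 and 10.2 and 8.88 in Control 2. Its difference was -0.11 (95% interval -0.26 to 0.04, adjusted p = 0.289). Against Control 1, which both comparisons share, FTSH2 was higher by 2.50 in Cold and 2.40 in High light, and HCF173 by 2.33 and 2.43. High levels of these genes were not particular to Cold and High light. At High temperature FTSH2 had 705 and 751 FPKM and HCF173 had 77.7 and 78.6. In Darkness and the pH treatments FTSH2 had 66.8 to 135 FPKM and HCF173 had 8.47 to 11.8. Zeaxanthin epoxidase (ABA1, Mv14100-RA), an enzyme of the xanthophyll cycle from the phytohormone list, was added after its values were seen. It had 370 and 372 FPKM in Cold, 442 and 419 in High light and 117 to 144 in the untreated libraries. Its difference of -0.21 (95% interval -0.34 to -0.08) did not pass the test (adjusted p = 0.0273).

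Of the 11 tested photosynthesis genes, 3 were higher in Cold and 8 did not pass the test; none was called at 2-fold, and the intervals of all 11 lay within 2-fold. The list's median was 0.01 against -0.08 for all tested genes. That is 27.3% of the list, beside 3.17% of all tested genes in this direction. The malate dehydrogenase homolog MDH (Mv09135-RA), which interconverts malate and oxaloacetate, had 272 and 254 FPKM in Cold against 196 and 198.5 in High light, with 147 in Control 1 and 139 and 130.2 in Control 2. Cold and High light did not overlap, both stood above every untreated library, and the difference was 0.41 ± 0.05 (SE; adjusted p = 0.00045). DTC (Mv04123-RA), a mitochondrial carrier of di- and tricarboxylates, had 383 and 357 FPKM in Cold, 288 and 281 in High light, 165 in Control 1 and 189.9 and 190.04 in Control 2. Its difference was 0.38 ± 0.05 (SE; adjusted p = 0.000739), and again Cold was the highest and untreated the lowest.

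The homolog of phosphoenolpyruvate carboxylase, pepc1/PPC1 (Mv20570-RA), which fixes bicarbonate into oxaloacetate, was the exception in its reference level. It had 32.5 and 33.5 FPKM in Cold, 27.6 and 26.2 in High light, 32.1 in Control 1 and 32.8 and 31.5 in Control 2. Cold was thus level with untreated cells and High light below them, with a difference of 0.29 (adjusted p = 0.00373). The adjusted p of this gene rose to between 0.0129 and 0.0383 when any of the 4 libraries was left out, while those of MDH and DTC stayed at or below 0.00987. With only the 4 Cold and High light libraries fitted, none of the 3 passed (adjusted p = 0.0161 for MDH, 0.02 for DTC and 0.0312 for PPC1).

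The other 8 photosynthesis genes did not pass the test. The blue-light receptor homolog CRY1 (Mv08907-RA) had 11.1 and 11.5 FPKM in Cold and 11.2 and 11.2 in High light, against 9.03 to 9.78 in untreated cells, with an interval of the difference from -0.18 to 0.20. Of the aspartate aminotransferase homologs (ASP5/AspAT), Mv13545-RA had 100.4 and 102 FPKM in Cold, 94.0 and 84.5 in High light and 32.5 to 47.5 untreated (interval 0.01 to 0.37), and Mv14894-RA had 73.5 and 75.2 against 75.6 and 75.4, with 59.9 to 65.03 untreated (interval -0.16 to 0.11). Values of both genes lay above the untreated range in each Cold and High light library. The small subunit of ADP-glucose pyrophosphorylase, ADG1 (Mv04628-RA), which serves starch synthesis, overlapped between the treatments, with 148 and 148 FPKM in Cold, 157 and 142 in High light and 119 to 157 in untreated cells. A gene of the block headed by me2 (Mv15086-RA; NAD-dependent malic enzyme) was low in both treatments, at 17.4 and 17.1 FPKM in Cold, 19.3 and 17.7 in High light and 33.9 to 36.3 untreated. GGT1/AOAT1 (Mv14619-RA), the aminotransferase of photorespiration, had 15.3 and 16.3 FPKM in Cold and 20.7 and 19.9 in High light, with 14.7 to 20.2 untreated. Its groups did not overlap, and its difference of -0.36 (interval -0.56 to -0.15) had an adjusted p of 0.0232. It passed with upper-quartile scaling (0.00579), with quantile normalization (0.00313) and without the high temperature libraries (0.00298), but had 0.114 after scaling to equal totals. Against Control 1, by the 2-fold rule, 4 of the 11 genes were called higher and 1 lower in Cold, and 3 higher and 0 lower in High light. Of all tested genes, 3.76% were called higher and 8.28% lower in Cold, and 3.55% higher and 2.26% lower in High light. DTC (1.17 in Cold and 0.79 in High light) and Mv15086-RA (-1.02 and -0.93) reached 2-fold only in Cold.

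**Figure D3:**
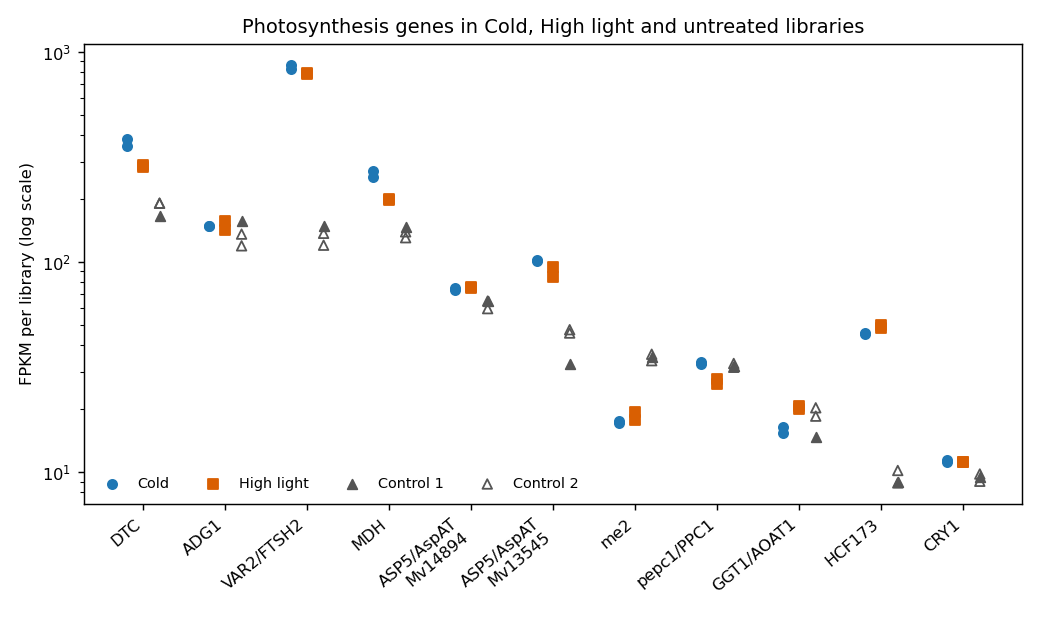
FPKM (log axis) of the 11 tested photosynthesis genes in each Cold, High light and untreated library, 1 symbol a library. VAR2/FTSH2 and HCF173 stand far above the untreated libraries in both treatments, and DTC and MDH descend from Cold through High light to untreated.

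Among the genes with plastid terms, 0 of 27 were higher in Cold and 2 higher in High light; the list's median was -0.002. The 2 genes were 7.41% of the list, near the 6.16% of all tested genes in that direction, and 1 of them passed after median-ratio scaling. Of 7 tested genes whose terms name the thylakoid, a photosystem or photosynthesis, 5 did not pass, with differences from -0.34 to 0.12. Mv10383-RA (chloroplast thylakoid membrane) had 85.9 and 84.9 FPKM in Cold, 123 and 127 in High light, 294 in Control 1 and 241 and 262 in Control 2. High light libraries were well below the untreated level and Cold libraries were lower still, with a difference of -0.55 ± 0.06 (SE; adjusted p = 0.000172). Mv21781-RA (photosynthesis, light reaction) had 167 and 168 FPKM in Cold, 199 and 192 in High light and 120 to 144 untreated. Its difference of -0.22 (adjusted p = 0.00673) fell to -0.15 after median-ratio scaling (adjusted p = 0.226), and its adjusted p was 0.0222 or more whichever of the 4 libraries was left out. Of 16 genes with response terms 1 was higher in Cold (6.25%, beside 3.17% of all tested genes): Mv20784-RA, whose terms include response to light stimulus and root development. It had 529 and 535 FPKM in Cold, 408 and 391 in High light, 78.6 in Control 1 and 101 and 107 in Control 2. Cold thus had the highest level of a gene that stood several-fold above untreated in both treatments, with a difference of 0.41 (adjusted p = 0.00123; above 0.01, up to 0.0151, without Cold replicate 1, Cold replicate 2 or High light replicate 2).

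In the list of epigenetic genes, 6 of 45 were higher in Cold, 1 was higher in High light and 38 did not pass; after median-ratio scaling 7 were higher in Cold and 0 in High light. The median was -0.004. Genes higher in Cold were 13.3% of the list, beside 3.17% of all tested genes, and 15.6% beside 4.2% after median-ratio scaling. Among the genes that passed, the 2 largest differences were in a nucleolin gene and a gene of the arginine methyltransferase block. NUC-L1 (Mv02515-RA), a homolog of nucleolin, the nucleolar protein that acts on ribosomal RNA genes and their transcripts, had 84.3 and 88.5 FPKM in Cold and 45.03 and 44.8 in High light. Its untreated libraries lay between, at 51.1 in Control 1 and 54.1 and 55.3 in Control 2. The difference was 0.94 ± 0.06 (SE; 95% interval 0.82 to 1.06, adjusted p = 4.59e-06). It lay just inside the 2-fold limit and reached 1.01 after scaling by equal totals or median ratios. Against Control 1, NUC-L1 was higher by 0.76 in Cold (adjusted p = 6.81e-06) and differed by -0.18 in High light (adjusted p = 0.0587). Across the other conditions it had 16.2 and 16.8 FPKM in Darkness, 2.96 and 2.72 at High temperature and 39.4 to 45.4 in the pH treatments, so that Cold had the highest values of all 15 libraries.

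Mv11286-RA, a gene of the block headed by PRMT1A, a methyltransferase of protein arginines, had 127 and 127 FPKM in Cold, 70.0 and 69.8 in High light, 57.8 in Control 1 and 67.7 and 64.9 in Control 2. High light was close to the untreated level and Cold stood apart, with a difference of 0.86 ± 0.06 (SE; adjusted p = 1.73e-05). A further PRMT1A gene (Mv08291-RA) had 9.98 and 10.8 FPKM in Cold, 7.72 and 7.2 in High light and 8.15 to 9.49 untreated, between the treatments. Its difference of 0.47 (adjusted p = 0.00884) had an adjusted p of 0.0302 or more whichever library was left out. The block held 6 tested genes, and the other 4 did not pass, with differences from -0.12 to 0.20 and adjusted p of 0.23 or more. Of all tested genes, 3.17% were higher in Cold, and a block of 6 genes is too small to set against that share.

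FCA (Mv00415-RA), an RNA-binding protein that acts on transcript 3' ends in Arabidopsis, had 71.7 and 72.8 FPKM in Cold, 50.7 and 45.7 in High light, 36.5 in Control 1 and 39.3 and 36.1 in Control 2. Its difference was 0.58 (adjusted p = 0.0012; above 0.01, up to 0.0156, without Cold replicate 1, Cold replicate 2 or High light replicate 2). The cap-binding subunit ABH1/CBP80 (Mv02610-RA) had 17.4 and 16.6 FPKM in Cold, 13.4 and 13.8 in High light and 12.1 to 12.9 untreated (difference 0.32, adjusted p = 0.00819; 0.0311 to 0.0674 with a library left out). The histone acetyltransferase homolog HAM1 (Mv16512-RA), also listed as a C2H2-ZnF factor, had 92.8 and 97.9 FPKM in Cold and 79.6 and 78.0 in High light, with 86.3 to 98.9 untreated, so High light was the low group (difference 0.27, adjusted p = 0.00991; 0.0295 to 0.077 with a library left out). The single gene in the other direction was EFS/SDG8/ASHH2 (Mv10940-RA), a histone H3 lysine methyltransferase in Arabidopsis, with 6.28 and 6.74 FPKM in Cold, 10.8 and 9.79 in High light, 13.9 in Control 1 and 8.4 and 9.96 in Control 2. Its difference was -0.65 (adjusted p = 0.00286), with an adjusted p of 0.012 after median-ratio scaling and of 0.0138 to 0.0304 with a library left out. FVE (Mv08890-RA) shows how a single library can set an estimate: it had 5.66 and 5.18 FPKM in Cold and 5.61 in High light replicate 1 but was listed at 0 in High light replicate 2, and its fitted difference of 2.87 had an adjusted p of 0.379.

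Of 112 transcription factor genes, 9 were higher in High light, 3 higher in Cold and 100 did not pass. The 9 and 3 genes were 8.04% and 2.68% of the list, beside 6.16% and 3.17% of all tested genes. After median-ratio scaling the numbers were 9 and 4, or 8.04% and 3.57%, beside 3.64% and 4.2% of all tested genes. The list's median was -0.06, and it ran from -0.06 to 0.01 under the 4 scalings. The highest factor gene among those that passed was an AP2/ERF gene (Mv13803-RA), of a family known in plants for responses to stress and hormones. It had 1338 and 1317 FPKM in Cold, 2223 and 2197 in High light, 2719 in Control 1 and 2847 and 2946 in Control 2. Levels thus stepped down from untreated through High light to Cold with no overlap, and the difference was -0.74 ± 0.04 (SE; adjusted p = 1.87e-06). None of the other 8 AP2/ERF genes passed the test.

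The B-box (BBX) factors are zinc-finger proteins of light signalling in plants. Of 6 tested, 2 genes were higher in High light, beside 6.16% of all tested genes in that direction. A count in so small a family shows nothing particular to it. Mv06685-RA had 73.0 and 82.9 FPKM in Cold, 128 and 127 in High light, 146 in Control 1 and 228 and 233 in Control 2, a difference of -0.71 ± 0.06 (SE; adjusted p = 2.76e-05). Mv00351-RA had 2.92 and 2.91 FPKM in Cold, 4.4 and 4.41 in High light and 5.53 to 6.3 untreated, a difference of -0.58 (adjusted p = 0.000963; 0.00905 to 0.011 with a library left out, lost without Cold replicate 1 or High light replicate 2). In both genes the untreated libraries were the highest group and Cold the lowest.

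The only tested NF-YA gene (CCAAT-NFYA, Mv16230-RA), a subunit of the factor that binds CCAAT boxes, had 17.7 and 19.3 FPKM in Cold, 30.2 and 29.3 in High light, 55.7 in Control 1 and 47.7 and 44.3 in Control 2. Its difference was -0.68 ± 0.06 (SE; adjusted p = 5.42e-05). Against Control 1 it fell by 1.59 in Cold and fell by 0.90 in High light. A GARP gene (Mv15844-RA) of 12 tested had 1.85 and 1.65 FPKM in Cold against 3.1 and 3.25 in High light and 3.0 to 3.25 untreated. Of these 2 treatments only Cold left the untreated level, with the widest difference among the factor genes that passed, -0.83 (adjusted p = 0.00128). With a library left out the difference ran from -0.904 to -0.749, and it did not pass without Cold replicate 2 or High light replicate 2. Other conditions also left that level, with 0.87 and 0.78 FPKM at High temperature and 4.96 and 4.64 in Darkness. The only tested GATA gene (Mv00313-RA) had the same order, with 19.8 and 18.5 FPKM in Cold, 28.3 and 26.2 in High light and 26.6 to 27.5 untreated (difference -0.50, adjusted p = 0.00106; above 0.01, up to 0.013, without Cold replicate 2 or High light replicate 1). Of 16 tested C2H2 zinc-finger genes, 3 were higher in Cold and 1 higher in High light, with differences from -0.46 to 0.32. Of all tested genes, 3.17% and 6.16% were. These 3 were the factor genes higher in Cold. Among the 3, Mv12024-RA had 38.0 and 38.5 FPKM in Cold, 31.0 and 30.2 in High light and 22.7 to 25.4 untreated (difference 0.32, adjusted p = 0.00128; above 0.01, up to 0.0151, without any library but High light replicate 1). None of the 4 heat shock factor (HSF) genes passed, with differences from 0.03 to 0.44, nor did any of the 10 bZIP genes, from -0.27 to 0.17.

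**Figure D4:**
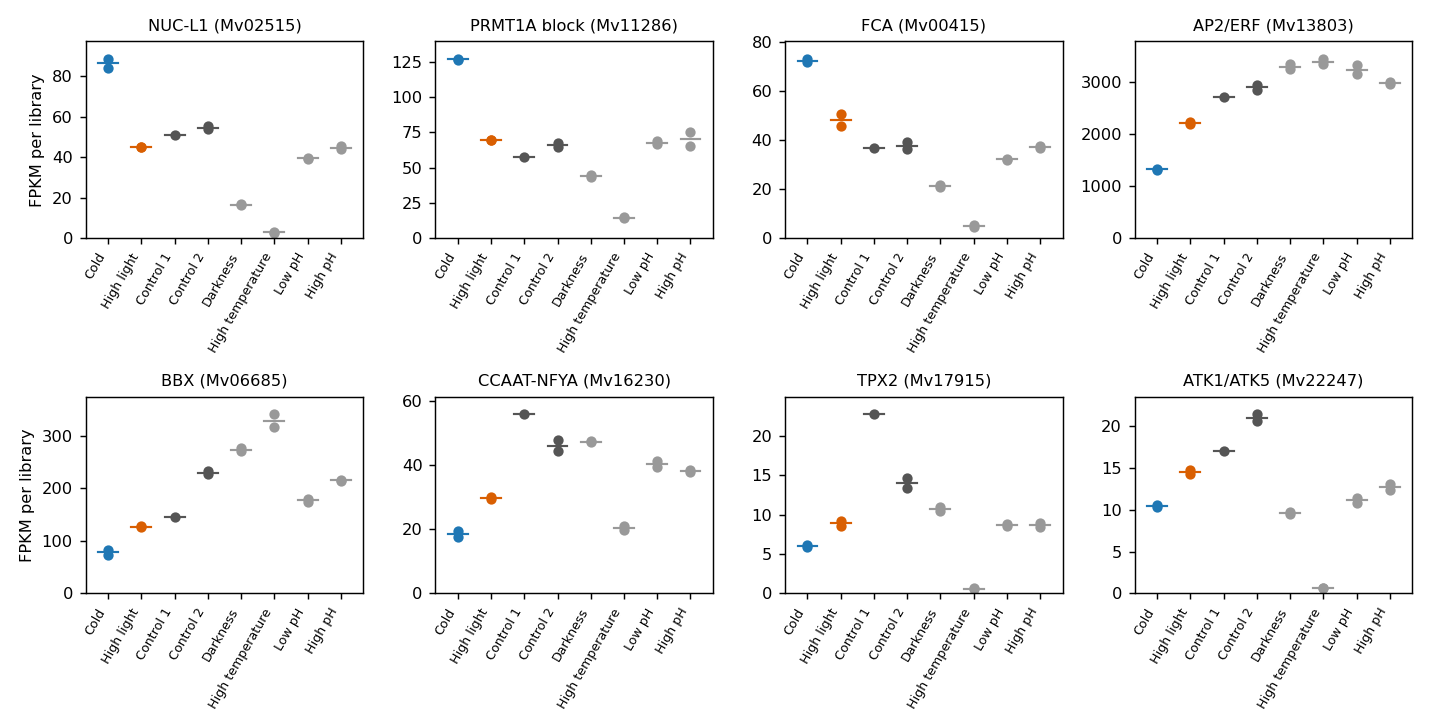
FPKM of 8 named genes in each library (points) with the condition mean (bar); vertical axes start at 0. NUC-L1, the PRMT1A gene and FCA are highest in Cold, the AP2/ERF and BBX genes are lowest in Cold with High light next, and TPX2 and ATK1/ATK5 lie below the untreated libraries in both treatments.

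Of 53 tested cytoskeleton genes, 6 were higher in High light and 0 in Cold, and the list's median was -0.19, against -0.08 for all genes; it ran from -0.18 to -0.12 under the 4 scalings. The 6 genes were 11.3% of the list, beside 6.16% of all tested genes in that direction. After median-ratio scaling 2 of the 6 passed, 3.77% of the list, near the 3.64% of all tested genes. Those were spindle genes. TPX2 (Mv17915-RA), which promotes spindle microtubules, had 6.13 and 5.92 FPKM in Cold, 9.17 and 8.58 in High light, 22.7 in Control 1 and 13.3 and 14.7 in Control 2, a difference of -0.55 (adjusted p = 0.00199; 0.0116 to 0.0215 with a library left out). The kinesin listed for ATK1 and ATK5 (Mv22247-RA), minus-end-directed motors in Arabidopsis, had 10.4 and 10.6 FPKM in Cold, 14.7 and 14.2 in High light and 17.1 to 21.4 untreated, a difference of -0.46 (adjusted p = 0.00167; 0.0122 to 0.0182 with a library left out). In both genes the untreated libraries were above the treated ones.

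Tubulins gave smaller differences. A beta-tubulin (Mv08461-RA) had 256 and 248 FPKM in Cold, 313 and 306 in High light and 242 to 267 untreated, so High light was the group outside the untreated range (difference -0.29, adjusted p = 0.000694; 0.0573 after median-ratio scaling). The gamma-tubulin listed for both gamma1 and gamma2 (Mv12488-RA), which nucleates microtubules, had 18.2 and 18.4 FPKM in Cold, 23.3 and 23.0 in High light, 31.7 in Control 1 and 19.9 in each Control 2 library (difference -0.34, adjusted p = 0.005; 0.07 after the same scaling and 0.031 to 0.0378 with a library left out). Reads of near-identical tubulin copies may be divided among them, so values of single tubulin genes are uncertain. In a further tubulin (Mv21576-RA) the replicates differed: it had 235 and 223 FPKM in Cold but 260 and 753 in High light, and 936 in Control 1 against 345 and 355 in Control 2. Its difference of -0.95 did not pass the test (adjusted p = 0.0731), and without High light replicate 1 it was -1.72 (adjusted p = 1.45e-06). The microtubule-associated protein AIR9 (Mv12871-RA) had 45.3 and 45.0 FPKM in Cold, 57.8 and 53.6 in High light and 81.4 to 86.7 untreated (difference -0.30, adjusted p = 0.00304; 0.0147 after median-ratio scaling and above 0.01, up to 0.0296, without any library but High light replicate 2).

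Of 19 cell cycle genes, the A-type cyclin CYCA1;1 (Mv18326-RA) was the only one to pass, with 21.3 and 18.8 FPKM in Cold and 28.8 and 27.4 in High light. Its untreated libraries disagreed, at 47.0 in Control 1 and 16.4 and 19.3 in Control 2, and its difference of -0.49 (adjusted p = 0.00623) had an adjusted p of 0.0172 after median-ratio scaling and of 0.0142 to 0.0586 with a library left out. CYCA1;1 was 5.26% of the cell cycle list, beside 6.16% of all tested genes in that direction. After median-ratio scaling 1 cell cycle gene (5.26%) passed as higher in Cold and 0 as higher in High light, beside 4.2% and 3.64% of all tested genes. None of 43 vesicle traffic genes and none of 7 cell wall synthesis genes passed, with medians of 0.05 and 0.04. At an unadjusted p under 0.05 there were 7 and 2 such genes, beside 4804 of all 14297 tested genes. After median-ratio scaling 2 and 1 passed, all higher in Cold. These were 4.65% and 14.3% of the lists, beside 4.2% of all tested genes. Of 14 phytohormone genes, only the corepressor TPL (Mv09757-RA) passed the test, 7.14% of the list beside 6.16% of all tested genes in that direction. It had 6.98 and 6.97 FPKM in Cold, 9.73 and 9.85 in High light and 9.95 to 11.2 untreated (difference -0.48, adjusted p = 0.00402). With any 1 of the 4 libraries left out, the difference ran from -0.491 to -0.475 and did not pass.

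The remaining division and communication genes included 3 that were higher in Cold and 1 higher in High light, of 32 tested. These were 9.38% and 3.12% of the list, beside 3.17% and 6.16% of all tested genes. A GTPase gene listed under EMB2001 and ENGB (Mv01251-RA) had 10.5 and 10.2 FPKM in Cold, 6.35 and 6.73 in High light and 6.46 to 6.78 untreated. MUS (Mv15998-RA), a receptor-like kinase in Arabidopsis, had 7.71 and 7.81 FPKM in Cold, 4.89 and 4.57 in High light and 4.55 to 6.0 untreated. RANGAP1 (Mv04816-RA), the activator of the Ran GTPase that drives transport through nuclear pores, had 31.7 and 31.5 FPKM in Cold, 23.5 and 24.3 in High light and 21.2 to 23.1 untreated. In these 3 genes Cold alone stood well above the untreated level, by differences from High light of 0.65, 0.70 and 0.40 (adjusted p = 0.000988, 0.00188 and 0.00515), and the adjusted p rose above 0.01 without Cold replicate 1 or High light replicate 1 for EMB2001/ENGB (up to 0.0126) and whichever library was left out for MUS and RANGAP1 (up to 0.022 and 0.0384). RPS13A (Mv10742-RA), a protein of the small ribosomal subunit, had 1356 and 1365 FPKM in Cold, 1758 and 1780 in High light and 2004 to 2212 untreated, a difference of -0.38 (adjusted p = 0.000549; 0.0524 after median-ratio scaling).

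Of 91 tested genes with terms from the charophyte ontology list, 3 were higher in Cold and 7 higher in High light. These were 3.3% and 7.69% of the list, beside 3.17% and 6.16% of all tested genes. After median-ratio scaling the numbers were 2 and 2, 2.2% each, beside 4.2% and 3.64% of all tested genes. Among those higher in High light and not yet described, Mv05252-RA (macromolecule metabolic process) had 54.8 and 51.05 FPKM in Cold, 70.0 and 73.0 in High light and 53.6 to 63.4 untreated, a difference of -0.43 (adjusted p = 0.000779; 0.029 after median-ratio scaling, 0.0106 without High light replicate 2). Mv22130-RA and Mv09647-RA differed by -0.40 and -0.34 (adjusted p = 0.00831 and 0.00917), with 0.0303 or more whichever library was left out. Mv22130-RA had 3.61 and 3.51 FPKM in Cold, 4.60 and 4.85 in High light and 6.83 to 7.60 untreated. Mv09647-RA had 9.48 and 9.37 FPKM in Cold, 12.2 and 11.7 in High light and 15.1 to 15.9 untreated. Neither passed after median-ratio scaling (adjusted p = 0.0233 and 0.0366). A gene with the term nucleoside-triphosphatase activity (Mv00833-RA) had 69.0 and 68.6 FPKM in Cold, 48.1 and 46.7 in High light, 34.8 in Control 1 and 21.6 and 21.5 in Control 2, a difference of 0.54 ± 0.07 (SE; adjusted p = 0.000593).

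The called genes were thus all genes that the lists do not name. The 77 genes higher in High light had a median of 2.0 FPKM over the 4 libraries, against 7.37 for all tested genes, and 13 of them had at least 10 FPKM. The 16 genes higher in Cold had a median of 7.13 FPKM, 5 of them at least 10 FPKM and 4 at least 100 FPKM. Differences ran from 1.02 to 3.73 on the log2 scale for the genes higher in Cold, and for the genes higher in High light their size ran from 1.0 to 2.86, with medians of 1.16 and -1.20.

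Beside the Control 1 library, which both comparisons share, the 77 genes higher in High light were mainly genes low in Cold. In Cold, 63 of them were called lower than Control 1 and 0 higher, with a median of -1.63, against 1184 lower (8.28%) and 538 higher (3.76%) among all tested genes. In High light, 11 were called lower and 2 higher, with a median of -0.38, against 323 (2.26%) and 507 (3.55%). Of the 16 genes higher in Cold, 10 were called higher than Control 1 in Cold and 3 in High light, with medians of 1.57 and 0.20, and 2 were called lower in High light. The same medians set against Control 2 were -1.88 in Cold and -0.59 in High light for the 77 genes, and 1.37 and 0.14 for the 16 genes. The genes were chosen with these Cold and High light values, so the counts describe them and test nothing.

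**Figure D5:**
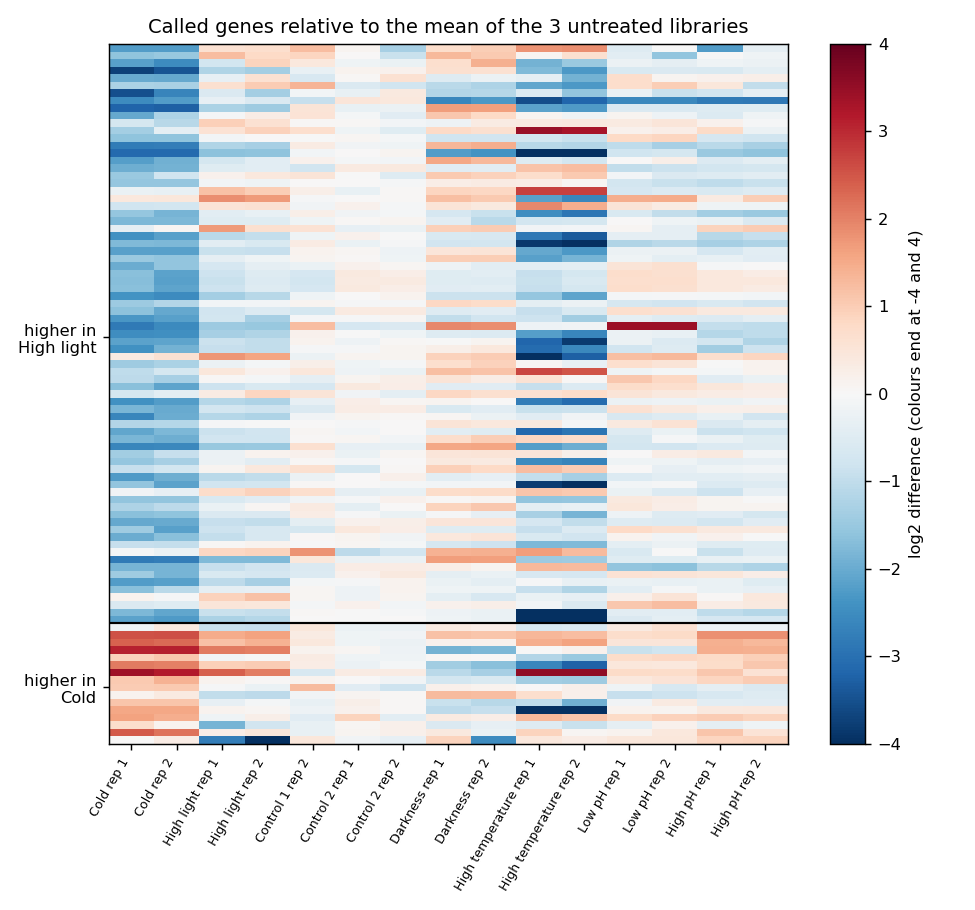
The 93 called genes (rows, ordered by the difference) in all 15 libraries (columns), as log2 differences from the mean of the 3 untreated libraries; the colours end at -4 and 4. Among the 77 genes above the line, the Cold columns are mostly blue where the High light columns are pale, and among the 16 below it the Cold columns are mostly red.

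Values of the unnamed genes with the widest differences, at a mean of at least 10 FPKM, show both orders. Mv12302-RA had 167 and 168 FPKM in Cold, 63.7 and 60.2 in High light, 49.8 in Control 1 and 64.2 and 59.4 in Control 2. High light lay within the untreated range while Cold stood apart, a difference of 1.44 ± 0.06 (SE; adjusted p = 4.47e-07). Mv00316-RA had 17.2 and 19.95 FPKM in Cold and 7.74 and 7.49 in High light, with the untreated libraries between them at 14.0, 16.7 and 15.9. Levels outside the untreated range were not particular to Cold and High light. This gene had 37.5 and 36.9 FPKM in Darkness, 24.9 and 17.8 at High temperature and 8.12 to 10.7 in the pH treatments. Its difference was 1.27 ± 0.13 (SE; adjusted p = 0.000122).

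In the other direction, Mv03132-RA had 4.38 and 5.31 FPKM in Cold, 25.8 and 23.2 in High light, 47.9 in Control 1 and 66.1 and 66.4 in Control 2. Both treatments were below the untreated level and Cold was by far the lower, a difference of -2.32 ± 0.15 (SE; adjusted p = 7.96e-06). Mv14368-RA had 6.47 and 7.84 FPKM in Cold and 29.5 and 25.1 in High light, a difference of -1.92 ± 0.15 (SE; adjusted p = 1.9e-05). Its untreated libraries disagreed, at 19.6 in Control 1 and 52.1 and 50.3 in Control 2, so Cold was below each of them and High light lay between them. Darkness, High temperature, Low pH and High pH also had low values of this gene, from 3.08 to 7.53 FPKM. Among the treatments, High light alone thus lay within the untreated range. All 4 genes kept an adjusted p of at most 0.01 in each alternative and with each library left out.

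Some entries among the 93 may not be separate measurements. A set of 6 of the 77 genes had values within 5% of each other in at least 8 of the 15 libraries, from 0.718 to 1.29 FPKM in Cold and from 1.9 to 2.44 in High light. Whether they are near-identical copies that share reads was not tested. Counted once, they leave 72 genes higher in High light. A value of exactly 0 can also be a failed estimate in files of this kind. There were 4 genes listed at 0 in both Cold libraries with at least 1 FPKM in both High light libraries, and 3 genes the other way round, and none of these 7 was called. Among the called genes, 1 was listed at 0 in both libraries of a treatment. In all, 261 of the 354 genes with a difference of at least 2-fold did not pass the test.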

How the data were processed

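Poly(A) RNA was sequenced as paired-end reads. The authors filtered the reads, aligned them to the *M. viride* genome with HISAT2 2.1.0 and calculated FPKM per gene with Cufflinks; FPKM for 24431 genes in each library are what was deposited, without counts. Control 1 replicate 1 was not analysed here. On the log2(FPKM + 0.1) scale, a mean was fitted for each condition over 15 libraries with limma (version 3.58.1 under R 4.3.3), with a trended prior, 7 residual degrees of freedom and no scaling; the procedure was tested on simulated data. Gene lists and names, mostly of Arabidopsis homologs, came from the study's supplementary tables, where a name heading a block covers its genes. Members and lists were chosen with earlier results of these data known. Named were all tested photosynthesis genes, of each other list up to 5 called genes per direction with at least 1 FPKM, and the 2 unnamed genes per direction with the widest difference at 10 FPKM or more. As no listed gene was called, the rule was repeated without the minimum difference after the values were seen, and some genes it chose are given as counts only. Alternatives changed the pseudocount, minimum, FDR, replicate block, libraries fitted, prior and scaling, or left out a library. Intervals and p-values rest on a spread between replicate cultures that was shared by all fitted conditions and moderated by the prior. It is not the spread of the 2 Cold and 2 High light cultures alone.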

Additional observations from a re-analysis of the deposited data

Results flagged for a closer look

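For 2 of the named genes that were called between Cold and High light, the treatments lay on opposite sides of the single Control 1 library. Mv00316-RA differed by 1.27 between Cold and High light on the log2 scale, 0.40 above Control 1 in Cold (adjusted p = 0.0598) and -0.87 in High light (adjusted p = 0.00202). Mv14368-RA differed by -1.92, with -1.45 in Cold (adjusted p = 7.63e-05) and 0.47 in High light (adjusted p = 0.066). The difference between the treatments was tested with limma, and neither gene was called against Control 1 in both. For Mv14368-RA the Control 2 libraries (52.1 and 50.3 FPKM) stood above both treatments, so the order against untreated cells depends on which control is used.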

How the results depend on the processing

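Adding 1 FPKM before taking logarithms gave 31 called genes, 10 higher in Cold and 21 in High light, 30 of them among the 93. With an adjusted p of at most 0.05 there were 154, 31 and 123. With only the 4 libraries there were 39, of which 25 were higher in High light. Median-ratio scaling gave 51 genes higher in High light, and quantile normalization gave 59 calls, 28 higher in Cold and 31 in High light. Leaving out 1 library gave 66 to 110 calls, 9 to 14 higher in Cold and 52 to 101 in High light; the lowest number for Cold came without Cold replicate 2. With no minimum difference, a rule added after the data were seen, there were 1334 genes (453 and 881), and 1121 (601 and 520) after median-ratio scaling. The median difference of all genes was -0.0623 with 1 FPKM added, -0.00583 after equal totals, -0.0108 after median ratios and 0.00447 after quantile normalization, and it ran from -0.0899 to -0.0626 without a library. Listed genes called at 2-fold numbered 1 after equal totals and after median-ratio scaling (NUC-L1) and 0 to 1 without a library (a tubulin, without High light replicate 1); with no minimum difference there were 42, or 35 after that scaling. Same-numbered libraries did not deviate together (r = 0.01 over genes). With 2 replicates a treatment this cannot show whether same-numbered cultures were paired, and the study's methods state no pairing. With the replicate block 86 genes were called, 15 higher in Cold and 71 in High light. Of the 41 named genes that passed the test, 15 passed without each library in turn, 24 under all 4 scalings and 13 under both, and 32 did not pass with only the 4 libraries fitted. No named gene that passed changed sign. Depth in fragments per gene is unknown, which limits the genes with low FPKM most. The cause of these changes was not tested.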
